A study of Mus musculus with 3 samples.

Results

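The 10 genes described here encode the mouse MHC class II presentation machinery and were taken by symbol from the 31253 genes of the series. They are the classical chains H2-Aa, H2-Ab1 and H2-Eb1, the invariant chain Cd74, the peptide editor genes H2-DMa, H2-DMb1 and H2-DMb2, the editor's inhibitors H2-Oa and H2-Ob, and Ciita. All 10 were present in the tables, and their UMIs (unique molecular identifiers, each standing for 1 captured transcript) were followed in B cells, dendritic cells, monocytes, Kupffer cells and endothelial cells, classes drawn from other marker genes only.

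Single cells of mouse liver were profiled in 3 libraries by 10x 3' sequencing. FL_control came from floxed GsdmdFL/FL mice without irradiation, FL_IR from GsdmdFL/FL mice exposed to 30 Gy, and dHep_IR from Gsdmd∆Hep mice exposed to 30 Gy, with irradiated livers taken after 7 days. All 3 libraries thus carry engineered Gsdmd alleles, and the genotype tag of dHep_IR reads gsdmd-ko. The sources used here do not give the Cre driver, strain, age, part of the body exposed or number of animals per library. Each group is 1 library, so no difference has a replicate check and no test was made. All intervals are 95% intervals that cover counting error only.

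After filtering, 6450, 6545 and 7268 cells remained in FL_control, FL_IR and dHep_IR, with median UMI counts of 5834, 7409 and 7970.5. Pairs of libraries shared between 10 and 60 cell barcodes. Gsdmd was read at 36.4 CPM (UMIs of a gene per 1000000 UMIs of the library or cell class) in FL_control, 7.2 in the library labelled FL_IR and 36.8 in the library labelled dHep_IR. The irradiated floxed library, and not the one labelled as deleted, therefore held the lowest level. Only 8 hepatocyte-like cells were kept in dHep_IR, too few to check a deletion in that cell type, so every direction below is between libraries as labelled.

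MHC class II molecules are heterodimers that carry peptides from endocytosed proteins to CD4 T cells. Cd74 occupies the groove of new class II molecules until it is degraded, H2-DM then exchanges its last fragment for peptide, and H2-O restrains H2-DM. Ciita is the coactivator that switches on class II genes, through factors bound at the X and Y boxes of their promoters. In liver, dendritic cells and B cells carry the pathway constitutively, while macrophages and recruited monocytes vary it with their state.

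Of the members, 8 lie on chromosome 17 between 34092340 and 34316674 (GRCm38, GENCODE vM21) and Ciita lies on chromosome 16 at 10480059 to 10528418. Promoter sequences were available from RefSeq (GRCm38.p6) for 7 members. The windows below run from 130 to 31 bases before the annotated start and are the 3 that lie wholly outside the annotated genes. They are shown because they carry the letters through which Ciita's partners are known to act; capitals mark the Y box letters GATTGG and the X-box-like letters AGNAACNNA.

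H2-Eb1 (chr17:34305737-34305836, plus strand): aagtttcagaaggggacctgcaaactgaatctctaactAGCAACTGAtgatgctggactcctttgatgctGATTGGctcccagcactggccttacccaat

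H2-Ob (chr17:34238775-34238874, plus strand): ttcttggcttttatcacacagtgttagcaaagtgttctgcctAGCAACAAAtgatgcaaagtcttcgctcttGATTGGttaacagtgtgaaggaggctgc

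H2-Aa (chr17:34287854-34287953, minus strand): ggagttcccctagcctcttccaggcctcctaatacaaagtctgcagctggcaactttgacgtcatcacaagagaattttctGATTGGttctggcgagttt

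Searched on both strands, the Y box letters were found in 6 of the 8 windows of 7 members and in 8.36% of all 32851 promoter windows. The X-box-like letters were found in 4 of the 8 and in 5.33% of all windows, and both together in 4 of the 8 and in 0.405% of all. The 4 genes with both were H2-Eb1, H2-Ob, H2-Oa and H2-DMb1, in which the motif starts lay 32, 30, 33 and 33 bases apart. The H2-Aa window held the Y box letters and no match to AGNAACNNA. Forms of the X box that differ from these letters were not searched for. Both motifs were chosen with these sequences in view, and a match is a description of letters.

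Cell classes were checked against their markers. All 10 B cell markers were detected in B-like cells of every library, and so were all 12 Kupffer markers, all 18 monocyte markers and all 18 endothelial markers in their classes. Detection alone says little, since every B cell marker also had a UMI in Kupffer-like, T-like and endothelial-like cells of FL_control. Summed marker levels in FL_control, FL_IR and dHep_IR were 9437, 4333 and 3799 CPM for B-like, 25311, 27875 and 25998 for Kupffer-like, 11580, 11618 and 9576 for monocyte-like and 28059, 14360 and 16162 for endothelial-like cells. Conventional dendritic (cDC-like) cells showed 15 of 15 markers in FL_control and 13 of 15 in dHep_IR, where Cd209a and Clec10a were at 0. The presenting classes differed in size between libraries: B-like cells numbered 1415, 21 and 11 in FL_control, FL_IR and dHep_IR, and cDC-like cells 98, 0 and 24. A count of 0 among 6545 cells allows a cDC-like share of up to 0.0458%, a limit that takes 3 cells of the total and is not one of the 2-sided intervals. Monocyte-like cells numbered 133, 462 and 903, Kupffer-like cells 564, 451 and 365, and endothelial-like cells 2507, 2622 and 3172.

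In FL_control, the summed level of H2-Aa, H2-Ab1, H2-Eb1 and Cd74 ordered the classes from cDC-like cells at 37382 CPM, through B-like cells at 24547, plasmacytoid dendritic (pDC-like) cells at 12595 and Kupffer-like cells at 10667, to monocyte-like cells at 4265. Counting intervals of these 5 neighbours did not overlap, but the place of monocyte-like cells rested on the clustering. Their FL_control level was 12569 CPM at clustering resolution 1 and 25732 without the second clustering of myeloid cells, above Kupffer-like cells at 11283 and 11281 in the same settings. Endothelial-like cells stood at 114 CPM. Of the classes that should lack the genes, T-like cells stood at 242, neutrophil-like at 356, hepatocyte-like at 229 and cholangiocyte-like at 76.8 CPM in the same library.

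**Figure D1:**
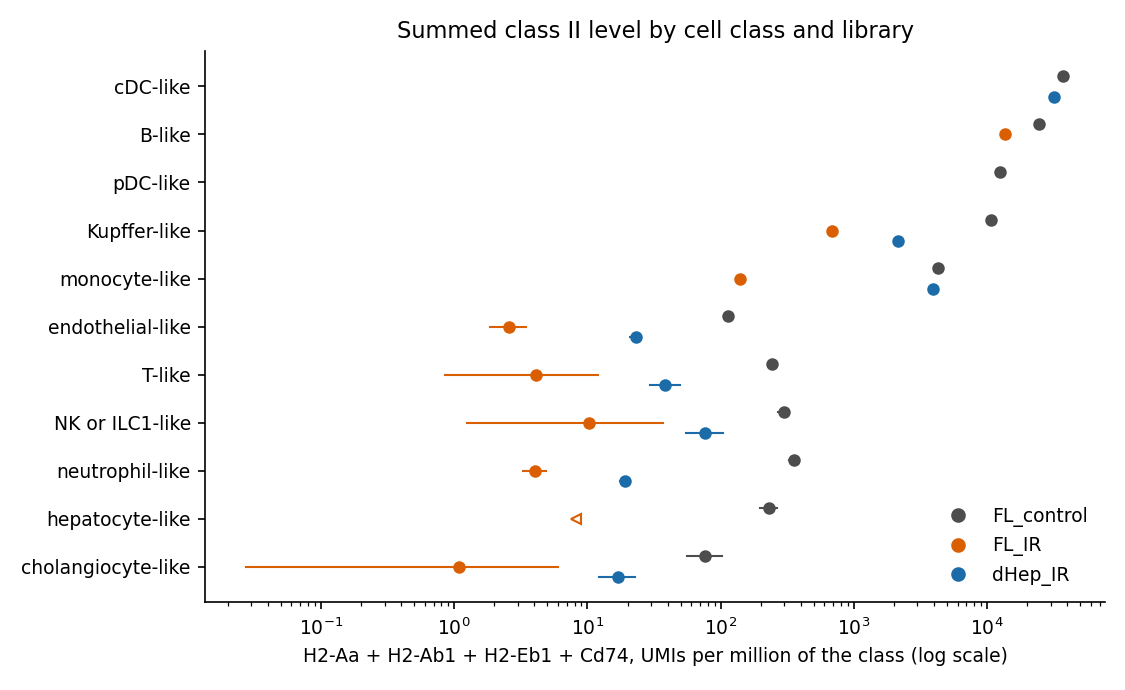
Summed CPM of H2-Aa, H2-Ab1, H2-Eb1 and Cd74 in each cell class (log scale), one point per library with at least 20 cells and a 95% counting interval; an open triangle is the upper bound of a class with no UMI. The FL_IR points of Kupffer-like and monocyte-like cells sit at 681.5 and 140, far left of 10667 and 4265 in FL_control.

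Kupffer-like cells, the resident macrophages of the liver sinusoids, held far fewer class II transcripts in both irradiated libraries. They fell mainly in cluster c15 in FL_control, with 543 cells, and in clusters c05 and c04 in FL_IR, with 246 and 204, and in dHep_IR, with 276 and 86. Taking FL_control, FL_IR and dHep_IR in that order, H2-Aa stood at 2163, 85.3 and 343 CPM, H2-Ab1 at 1987, 108 and 349, and H2-Eb1 at 1381, 45.0 and 192.5. Cd74 was read at 5136, 443 and 1246. All 4 were highest in FL_control, lowest in FL_IR and in between in dHep_IR. Between FL_IR and FL_control, H2-Eb1 was 30.7-fold lower (26.0 to 36.5), H2-Aa 25.4-fold lower (22.5 to 28.7), H2-Ab1 18.4-fold lower (16.5 to 20.6) and Cd74 11.6-fold lower (11.0 to 12.2).

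The peptide editor moved less than the molecules it edits. H2-DMa, its alpha chain, was read at 478, 104 and 127 CPM in FL_control, FL_IR and dHep_IR, and was 4.59-fold lower (4.09 to 5.16) in FL_IR than in FL_control. H2-DMb1, one of its beta chains, was read at 248, 62.6 and 84.9 and was 3.96-fold lower (3.41 to 4.62) in FL_IR. For every 100 UMIs of the classical chains, Kupffer-like cells thus held 13.3 H2-DM UMIs in FL_control, 70.8 in FL_IR and 24.2 in dHep_IR. Ciita was sparse, with 106, 4 and 10 UMIs, and was 14.4-fold lower (5.45 to 53.7) in FL_IR than in FL_control.

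A member is called here when its CPM differ at least 4-fold, with 0.5 UMIs added to each count, among members with at least 20 UMIs over both libraries. In Kupffer-like cells 7 of 9 such members were lower in FL_IR than in FL_control, against 2.65% of all genes tested, and 0 of 9 higher, against 1.86%. H2-Ob, at 52 and 0 UMIs, counts among the 7 and was at least 9.40-fold lower against a floor of 3 UMIs. The members' median log2 ratio was -3.68, against -0.03 over all genes. In dHep_IR against FL_control 6 of 9 were lower, against 3.77% of all genes, and 0 higher, against 2.17%. In dHep_IR against FL_IR 2 of 6 were higher and 0 lower, each against 0.583%. Those 2 were H2-Aa, 4.02-fold higher (3.52 to 4.61), and H2-Eb1, 4.27-fold higher (3.56 to 5.16). These 3 comparisons share libraries and are not independent. With clusters made at a lower resolution, 0 of the members were called lower in dHep_IR against FL_control, and the summed level of the 4 abundant genes was 2.67-fold lower in place of 5.01-fold.

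Cell by cell, the Kupffer-like difference ran through most of the class. Its clusters differed between control and irradiated libraries, so a change within cells and a change of cells cannot be told apart. The median cell held 71 UMIs of the 4 abundant genes in FL_control, 1 in FL_IR and 9 in dHep_IR. Cells with none made up 1.42%, 34.8% and 8.77% of the class in these libraries, and all 4 genes were seen together in 492 of 564, 37 of 451 and 154 of 365 cells. The class was shallower in the irradiated libraries, with median totals of 9814.5, 4920 and 7021 UMIs. Thinned to 1000 UMIs a cell, the share with any of the 4 genes was 98.5% of 532 cells, 34.2% of 412 and 69.8% of 344, with 32, 39 and 21 shallower cells left out. In T-like cells, thinned alike, the share was 9.33%, 0.893% and 1.97%.

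**Figure D2:**
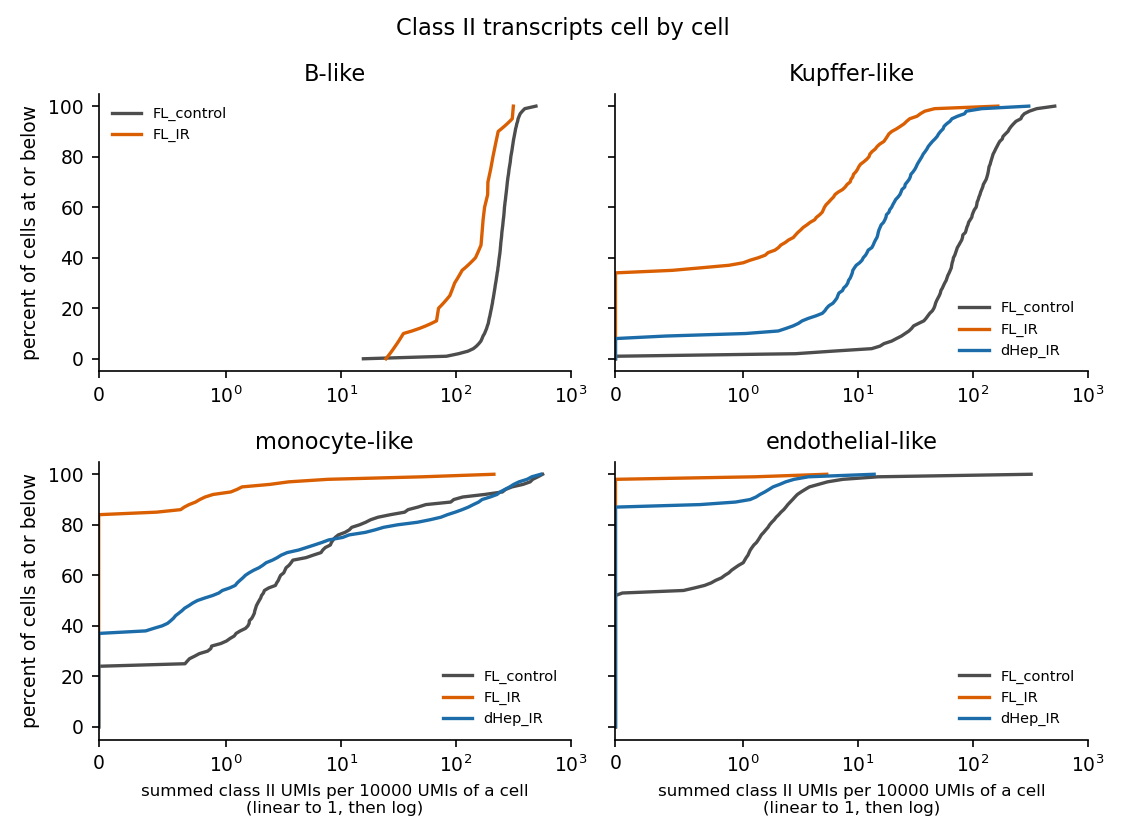
Cumulative percent of cells (vertical axis) at or below a given summed count of H2-Aa, H2-Ab1, H2-Eb1 and Cd74 per 10000 UMIs of the cell (horizontal axis, linear to 1 and then log), one line per library with at least 20 cells. The Kupffer-like lines are separated over most of their length, while the dHep_IR and FL_control lines of monocyte-like cells meet at the top and the FL_IR line stays near 0.

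Monocyte-like cells differed widely between the irradiated libraries. In the same order of libraries, H2-Aa stood at 736, 24.0 and 705 CPM, H2-Ab1 at 740, 15.1 and 667.5, and H2-Eb1 at 565, 11.2 and 525.5. Cd74 was read at 2224, 89.6 and 2012. FL_IR stood apart from both others in all 4 genes. The class was made of different clusters in each library, mainly m01 and m00 in FL_control, m08 and m18 in FL_IR and 9 others in dHep_IR, so that a change within a cell type and a change of cell types cannot be told apart. Between dHep_IR and FL_IR, H2-Eb1 was 47.0-fold higher (36.5 to 61.7), H2-Ab1 44.2-fold higher (35.5 to 55.7), H2-Aa 29.3-fold higher (24.7 to 35.2) and Cd74 22.4-fold higher (20.5 to 24.6) in dHep_IR.

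Ciita had 19 UMIs in monocyte-like cells of FL_control, 0 in FL_IR and 63 in dHep_IR. Against a floor of 3 UMIs in FL_IR, its level was at least 8.62-fold higher in dHep_IR. H2-DMa was read at 272, 63.2 and 150 CPM in FL_control, FL_IR and dHep_IR, and H2-DMb1 at 106, 24.0 and 78.0. Both were higher in dHep_IR than in FL_IR, 2.37-fold (2.11 to 2.67) and 3.25-fold (2.70 to 3.93), far less than the classical chains. FL_IR monocyte-like cells held 177 H2-DM UMIs for every 100 classical UMIs, against 19.1 in FL_control and 12.2 in dHep_IR.

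In monocyte-like cells 7 of 7 members tested were at least 4-fold lower in FL_IR than in FL_control, against 3.44% of all genes, and 0 higher, against 2.62%. The summed level of the 4 abundant genes was 30.5-fold lower (28.2 to 32.9), and between 9.92-fold with a per-cell marker gate and 88.0-fold without the second clustering of myeloid cells. In dHep_IR 5 of 8 were higher than in FL_IR, against 2.27%, and 0 lower, against 0.376%. Between dHep_IR and FL_control 0 of 8 were lower, against 2.99% of all genes, and 0 of 8 higher, against 3.47%. The summed level of the 4 abundant genes was 27.9-fold higher (26.0 to 30.1) in dHep_IR than in FL_IR, and it stayed above 4-fold in all 11 alternatives, from 9.63-fold with a per-cell marker gate to 30.0-fold. The near equality of dHep_IR and FL_control did not hold so: without the second clustering the level was 6.32-fold lower in dHep_IR. Ciita was 3.31-fold lower (1.87 to 5.61) and H2-DMa 1.82-fold lower (1.61 to 2.05) in dHep_IR than in FL_control.

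**Figure D3:**
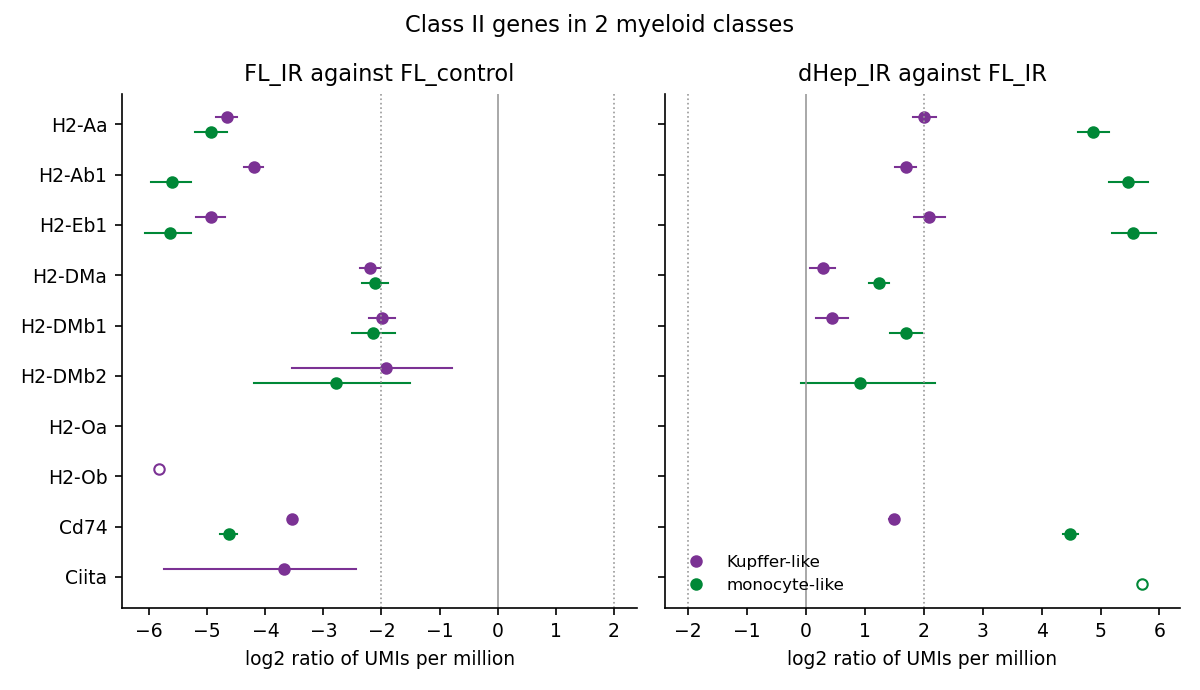
Log2 ratio of CPM for each class II gene in Kupffer-like and monocyte-like cells, FL_IR against FL_control (left) and dHep_IR against FL_IR (right), with 95% counting intervals; open points have 0 UMIs in one library and no interval, and genes under 20 UMIs are not drawn. Dotted lines mark 4-fold; the classical chains and Cd74 lie farther from 0 than H2-DMa and H2-DMb1 in both panels.

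The monocyte-like mean hid unequal cells. Of dHep_IR cells 37.8% had none of the 4 abundant genes and 16.1% had at least 100 UMIs of them, and the 90 highest cells held 74.4% of those UMIs. In FL_control 24.8% had none and 11.3% at least 100, with 84.5% of UMIs in the 13 highest cells. In FL_IR 84.8% had none, and 2 of 462 cells reached 100. The median totals were 9348, 11516 and 14261 UMIs in FL_control, FL_IR and dHep_IR. Thinned to 1000 UMIs, cells with any of the 4 genes were 33.6% in FL_control, 2.60% in FL_IR and 30.7% in dHep_IR.

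The myeloid cells were split into clusters without class II genes, and the clusters differed in class II level. In dHep_IR, monocyte-like clusters ranged from 13.2 CPM of the 4 genes in cluster m23 to 16675 in cluster m03. Cluster m23, of 67 cells, was read at 1555 CPM for Ly6c2, a marker of inflammatory monocytes, and at 6.14 for the complement gene C1qa. Cluster m03 was led by Gpnmb and Trem2, genes of lipid-handling macrophages, with Ly6c2 at 89.6 and C1qa at 2029. In FL_control Ly6c2 ran the other way. It stood at 1767 CPM in cluster m01, with the 4 genes at 4878, and at 18.7 in cluster m00, with the 4 genes at 711. Cells also differed within a cluster: the median m01 cell of FL_control held 2 UMIs of the 4 genes, and 26.8% held at least 10. FL_IR clusters with at least 10 cells in that library ranged from 5.54 to 106. The whole class stood at 140 CPM in FL_IR, so its few cells outside these clusters were higher on average. An unnamed cluster, m14, led by Retnla, Ccl17 and Clec10a, held 80 dHep_IR cells at 34075 CPM, between the cDC-like levels of 37382 in FL_control and 31756 in dHep_IR. It carried markers of more than 1 class and was left out of the monocyte-like values.

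**Figure D4:**
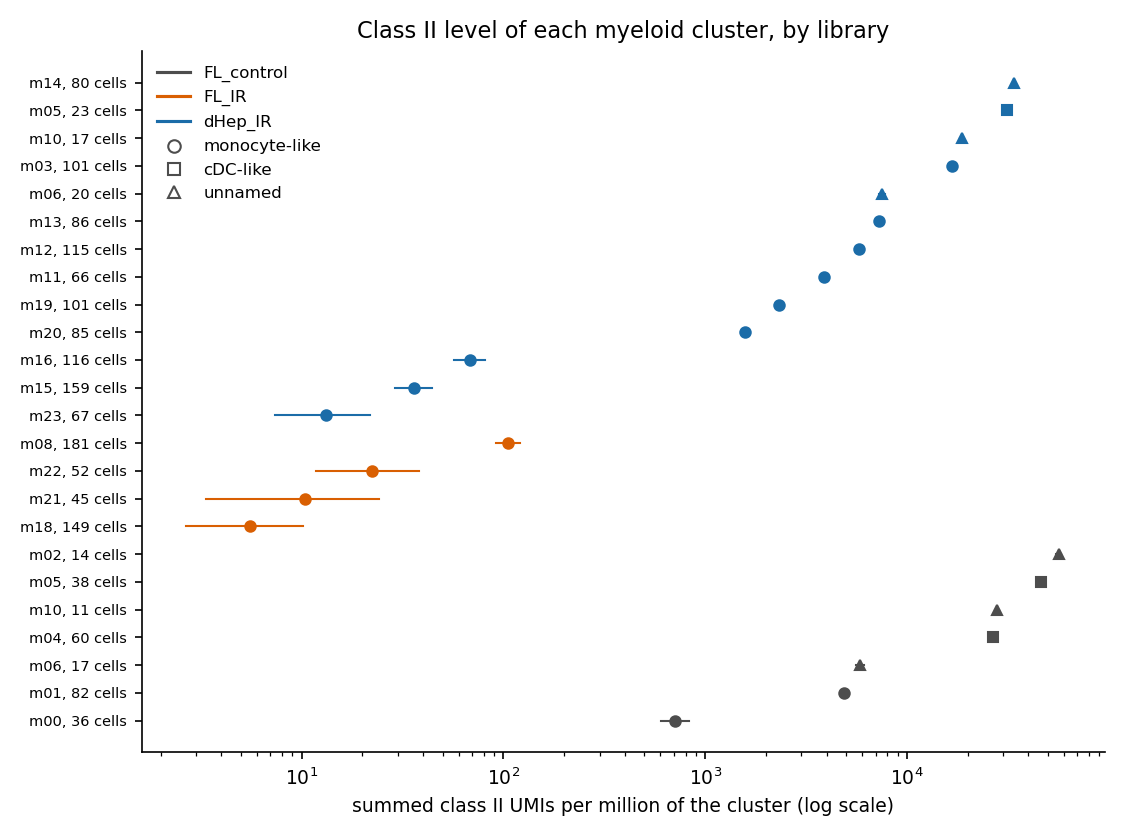
Summed CPM of H2-Aa, H2-Ab1, H2-Eb1 and Cd74 (log scale) in each re-clustered myeloid cluster with at least 10 cells in a library, grouped by library; circles are monocyte-like, squares cDC-like and triangles unnamed, with 95% counting intervals. The 4 FL_IR clusters lie between 5.54 and 106, and the dHep_IR monocyte-like clusters spread from 13.2 to 16675.

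cDC-like cells kept high levels where they were present. H2-Ab1 was read at 8678 CPM in FL_control and 6727 in dHep_IR, H2-Aa at 6805 and 6516, H2-Eb1 at 6559 and 5427, and Cd74 at 15339 and 13085. The summed level in dHep_IR was 0.849 times (0.834 to 0.866) that in FL_control, and FL_IR gave no cell of the class. The inhibitor genes differed more: H2-Ob was 4.19-fold lower (2.62 to 7.09) and H2-Oa 3.66-fold lower (2.28 to 6.20) in dHep_IR. Among 10 members 1 was at least 4-fold lower, against 3.85% of all genes, and 0 higher, against 1.15%. The class was made of other clusters in the 2 libraries, with 60 Cd209a-led and 38 Xcr1-led cells in FL_control and 23 Xcr1-led cells in dHep_IR. The Cd209a-led cells had Ly6c2 at 1063 CPM and left the class under 5 alternatives, which kept 36 to 42 FL_control cells. Within the Xcr1-led cluster m05 alone, the summed level was 46084 CPM in FL_control and 31485 in dHep_IR, and H2-Ab1 stood at 11344 and 6673. In the same cluster H2-Ob was read at 251 and 44.4 CPM and H2-Oa at 205 and 42.1 in FL_control and dHep_IR.

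B-like cells expressed all 10 genes. In FL_control, Cd74 was read at 13000 CPM, H2-Aa at 4396, H2-Ab1 at 3909, H2-Eb1 at 3241 and Ciita at 147, and 98.9% of cells held all 4 abundant genes. The 21 B-like cells of FL_IR were lower, with Cd74 at 6689, H2-Aa at 2618, H2-Ab1 at 2074 and H2-Eb1 at 2247. The sum of the 4 was 0.555 times (0.532 to 0.579) that in FL_control. Of 10 members 2 were at least 4-fold lower, H2-DMb1 and Ciita with 4 and 5 UMIs in FL_IR, against 4.92% of all genes, and 0 higher, against 3.3%. Across FL_control, FL_IR and dHep_IR, the immunoglobulin light chain Igkc stood at 7426, 58747 and 75861 CPM, so that the class also differed in antibody transcripts. S100a8, a neutrophil transcript, stood at 14.7 CPM in B-like cells of FL_control and 10177 in FL_IR. The part of these transcripts in the lower class II level was not tested.

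The H2-DM and H2-O genes stood in different proportions in B-like cells and in the dendritic, monocyte-like and Kupffer-like cells of FL_control. For every 100 UMIs of H2-DMb1, H2-DMb2 had 339 in B-like cells, 12.2 in cDC-like, 14.1 in pDC-like, 11.1 in monocyte-like and 3.14 in Kupffer-like cells. The longest annotated transcripts of these 2 beta chain genes are 94.1% identical over 1219 aligned bases and 70.9% over their last 300, so reads could be divided wrongly between them. For every 100 H2-DM UMIs, H2-O had 76.2 (73.6 to 79.0) in B-like cells, 20.8 (18.7 to 23.1) in cDC-like, 18.0 (15.2 to 21.3) in pDC-like and 1.37 (1.04 to 1.77) in Kupffer-like cells. The 11 B-like cells of dHep_IR stood at 41.7 (26.3 to 64.6). In FL_control, 3 classes with few class II UMIs lay near B-like cells. T-like cells stood at 73.1 (57.4 to 92.8), neutrophil-like at 62.5 (30.5 to 124) and endothelial-like at 61.9 (46.5 to 82.1). In FL_IR and dHep_IR, T-like cells stood at 56.4 and 53.7, neutrophil-like at 16.4 and 6.98, and endothelial-like at 6.35 and 2.63. The origin of these UMIs was not tested.

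Free RNA was not removed from the counts. Cd79a, a B cell receptor subunit, stood at 2576 CPM in B-like cells of FL_control. In FL_control, FL_IR and dHep_IR it had 83, 0 and 0 UMIs in Kupffer-like cells and 30, 0 and 1 in monocyte-like cells. Its partner Cd79b did not reach 0, at 27.4, 11.8 and 4.37 CPM in Kupffer-like and 13.45, 1.86 and 1.53 in monocyte-like cells. The 10 B cell markers summed to 231, 61.6 and 44.6 CPM in Kupffer-like and 95.85, 7.45 and 6.81 in monocyte-like cells. S100a8 went the other way, at 27.7, 1460 and 898 CPM in Kupffer-like and 52.1, 5882 and 7473 in monocyte-like cells of those libraries. Monocyte-like clusters of dHep_IR ranged from 269 CPM in m13 to 30259 in m23, and endothelial-like cells of that library stood at 476. The monocyte-like values can thus include the cells' own S100a8, which was not separated from free RNA. The 15 dendritic cell markers summed to 283, 277 and 259 CPM in monocyte-like cells, with 2, 4 and 1 of them at 0, and to 160, 147 and 179 in Kupffer-like cells, with 1, 3 and 2 at 0. The part of these transcripts in the class II differences was not tested.

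**Figure D5:**
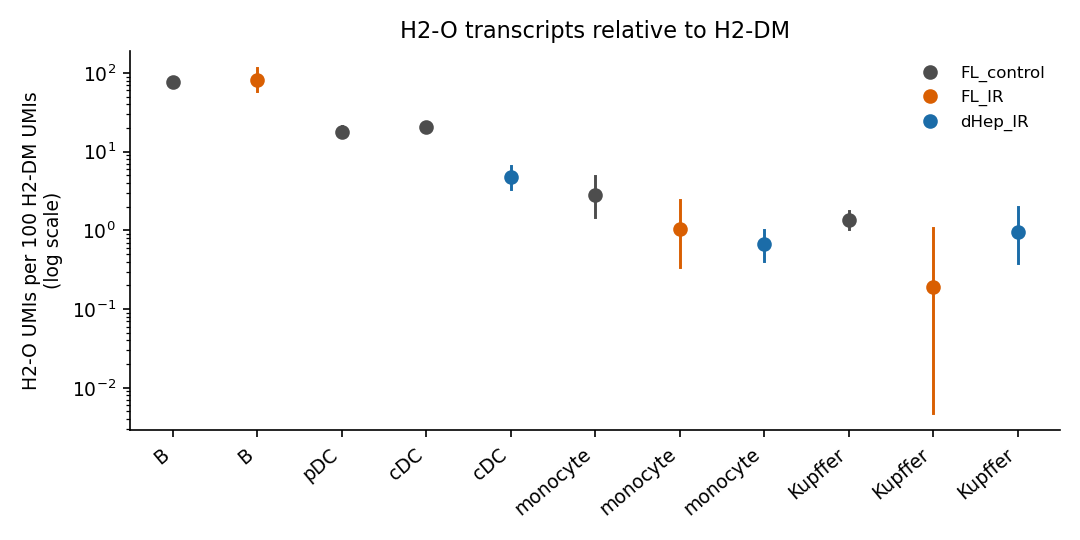
UMIs of H2-Oa and H2-Ob per 100 UMIs of H2-DMa, H2-DMb1 and H2-DMb2 (log scale) by cell class, one point per library with at least 20 cells and its 95% interval. B-like cells lie at 76.2 and 82.5, dendritic cells at 20.8 or below, and monocyte-like and Kupffer-like cells at 2.80 or below.

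Endothelial-like cells, which line the sinusoids, held few class II UMIs, in the range of cells that should lack them. For FL_control, FL_IR and dHep_IR, Cd74 stood at 49.2, 1.52 and 8.99 CPM, and in T-like cells of the same libraries at 107, 4.11 and 20.9. Thinned to 1000 UMIs a cell, 8.99%, 0.230% and 2.54% of endothelial-like cells held any of the 4 abundant genes, against 90 of 449, 12 of 2348 and 53 of 1985 neutrophil-like cells. Of the members 7 of 8 were at least 4-fold lower in FL_IR than in FL_control, against 5.19% of all genes, and 0 higher, against 3.52%. In dHep_IR 4 of 5 were higher than in FL_IR, against 0.272%, and 0 lower, against 0.222%. In dHep_IR 7 of 8 were lower than in FL_control, against 5.75%, and 0 higher, against 3.52%. That count fell to 3 of 10 with the stricter cell filter, 3 of 10 with the marker gate and 4 without cells holding B cell transcripts. With the stricter filter the summed level in dHep_IR was 168 CPM in place of 23.0, and 1.19-fold lower than in FL_control in place of 4.97-fold. The summed level of T-like cells ran the same way, at 242, 4.11 and 38.5 CPM. H2-DMa was the exception, at 2.84, 3.56 and 3.38 CPM in endothelial-like cells.

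Of the class II transcription genes, Irf4, a lymphoid and myeloid transcription factor, was at least 4-fold lower in FL_IR than in FL_control monocyte-like cells. It had 18, 9 and 52 UMIs there in FL_control, FL_IR and dHep_IR, out of class totals of 1189332, 5366437 and 13068224. Its share of the total was thus lower in dHep_IR than in FL_control, although its count was higher. Between dHep_IR and FL_IR, the interferon-induced feedback gene Socs1 was at least 4-fold higher, at 24.2 against 4.29 CPM. It was the only 1 of the 17 listed genes to be so, against 2.27% of all genes. In Kupffer-like cells Irf4 was at least 4-fold lower in FL_IR than in FL_control, with 4 and 61 UMIs. In that comparison 3.44% of all genes were lower in monocyte-like cells and 2.65% in Kupffer-like cells. The list had a median log2 ratio of -0.645 in monocyte-like cells, against -0.090 over all genes. In Kupffer-like cells its median was -0.081, against -0.026.

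The class I list moved less far. In monocyte-like cells 3 of 17 class I genes were at least 4-fold lower in FL_IR than in FL_control, against 3.44% of all genes, with a median log2 ratio of -1.43: Nlrc5, the class I counterpart of Ciita, B2m, the class I light chain, and Tap1, a peptide transporter. B2m was read at 3711 and 702 CPM. In Kupffer-like cells 0 of 17 were lower, against 2.65%, or higher, against 1.86%, with a median of -1.04 against -0.03 over all genes. Of 11 presentation helpers tested in monocyte-like cells, 2 were lower, Cd9 and Cd83, against 3.44% of all genes, and 1 higher, the protease Ctsl at 766 against 127 CPM, against 2.62%.

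The costimulation list, of ligands that add to or restrain the signal to T cells, was divided. Of 7 tested in monocyte-like cells, Cd40, a receptor for T cell help, and Cd274, an inhibitory ligand, were lower in FL_IR than in FL_control, against 3.44% of all genes, and higher in dHep_IR than in FL_IR, against 2.27%. Cd40 was read at 46.2, 1.86 and 42.9 CPM in FL_control, FL_IR and dHep_IR, and Cd274 at 40.4, 5.96 and 82.9. Cd80 went the other way between the first pair, at 14.3 and 39.0. In Kupffer-like cells 0 of 7 were lower in FL_IR than in FL_control, against 2.65% of all genes, or higher, against 1.86%. Among those 7 Cd274 alone was higher in dHep_IR than in FL_IR, at 185 against 43.1 CPM, where 0.583% of all genes were.

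Across 31 sums of a class in a library, the genes most like the mean of the 4 abundant class II genes were Cd180, with a Pearson correlation of 0.907, Cd83 with 0.906, Ly86 with 0.875, Rnase6 with 0.872, Pkib with 0.863, Fgd2 with 0.861, Pld4 with 0.834 and A530040E14Rik with 0.824. They were taken from 13489 genes with at least 100 UMIs, and 7 of the 8 were also among the 8 highest by rank correlation. Among the members, H2-DMb1 reached 0.929, Ciita 0.884, H2-DMa 0.874, H2-DMb2 0.832, H2-Ob 0.726 and H2-Oa 0.597. Sums from 1 library share its depth and its free RNA. None of the 8 genes matched the class II difference between dHep_IR and FL_IR in monocyte-like cells. Cd180 stood there at 5.36 CPM in dHep_IR beside 5.22 in FL_IR, and Cd83 at 87.8 beside 73.2. Ly86 stood at 137 beside 114, Rnase6 at 27.9 beside 25.9, Pkib at 34.7 beside 30.4 and Fgd2 at 15.2 beside 7.45. Pld4 stood at 196.5 beside 234.6 and A530040E14Rik at 0.612 beside 0.559.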

How the data were processed

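Liver cells of 3 libraries, 1 per group, were analysed from the deposited filtered matrices, in which the authors give unnormalised UMI counts for every gene in every cell. Per the submitters' processing notes CASAVA 1.8, Cell Ranger 6.1.1 and Seurat 4.0.3 were used with mm10, without a stated annotation version. Totals were 52858425, 59228905 and 78694038 UMIs for FL_control, FL_IR and dHep_IR.

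Cells with at least 500 UMIs, 250 genes and at most 25% mitochondrial UMIs were kept, and 168, 235 and 284 doublets called by Scrublet were removed. Cells were clustered with scanpy 1.11.5 (2000 variable genes, 30 components, 15 neighbours, Leiden resolution 2) without the class II genes. Clusters with monocyte or dendritic markers were clustered again. Clusters were named from marker lists; the naming rules and second clustering were set after clusters had been seen. Doublets of 2 related cell types and free RNA can remain.

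UMIs were summed per class and library and scaled to 1000000 (CPM). Intervals are exact (Poisson for levels, Clopper-Pearson for shares, conditional binomial for ratios). Calls need 20 cells in both libraries. The script was tested on simulated data. All 10 members are named; of each pathway list, up to 4 genes with the largest ratio could be named, and 8 genes by likeness. The members and lists were chosen with earlier results of these data known. TMM factors for 1 alternative came from edgeR 4.0.16. Sequences are from RefSeq, GRCm38.p6. Some genes of the lists, and counts that rest on them, are not reported here.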

Additional observations from a re-analysis of the deposited data

How the results depend on the processing

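No paired analysis was possible because each group is 1 library. Counts of members called were compared in each of 12 alternatives. Of these, 2 were chosen after seeing the data: no second clustering, and leaving out shallow clusters. The cause of each shift was not tested. The number of members tested changed with the setting, and shares of all genes called under the alternatives are not given here. In the B-like and cDC-like counts that follow, all 10 members were tested. For B-like cells, FL_IR against FL_control, 1 member in place of 2 was lower with the mean of per-cell values, with totals that left out member, immunoglobulin, haemoglobin and mitochondrial genes, and with doublets kept. For cDC-like cells, dHep_IR against FL_control, 0 in place of 1 were lower with TMM factors and per-cell means, and 2 with the stricter filter, with doublets kept, at resolution 1 and with class II genes in the clustering; those 4 settings kept 36 or 37 of the 98 FL_control cells. For monocyte-like cells, dHep_IR against FL_control, 0 of 8 members tested were lower. The count was 3 of 9 with the stricter filter and with class II genes in the clustering. It was 4 of 10 with doublets kept and at resolution 1, 2 of 10 with the marker gate, and 8 without second clustering. For Kupffer-like cells, dHep_IR against FL_IR, 2 of 6 members tested were higher. That count was 1 of 6 with doublets kept, 5 of 9 at resolution 1 and 5 without second clustering. In dHep_IR against FL_control 6 of 9 were lower, but 0 of 10 at resolution 1 and 0 without second clustering. For endothelial-like cells, dHep_IR against FL_control, 7 of 8 were lower. The stricter filter and the marker gate each gave 3 of 10. Without cells holding B cell transcripts the count was 4. Among members with at least 100 UMIs it was 4, and that minimum also gave 4 in place of 7 for FL_IR against FL_control.

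Signs turned in 8 cases. For dHep_IR against FL_control in monocyte-like cells, H2-Ab1 had a log2 ratio of -0.15 but 0.087 with TMM factors and 0.074 with per-cell means. Cd74 had -0.145 but 0.092, 0.140 and, with the marker gate, 0.054, and the core sum of the 4 abundant genes -0.125 but 0.112 and 0.092. In cDC-like cells H2-Aa had -0.062 but 0.145 with per-cell means. Leaving out shallow clusters moved none of the 22 counts by over 1.5 times. The marker gate gave no value for B-like cells of FL_IR, nor no second clustering for cDC-like cells. For endothelial-like cells the core sum in dHep_IR against FL_control was 4.97-fold lower but 1.19-fold with the stricter filter. With 1 library a group, depth limits sparse members most: Ciita, H2-Oa and H2-Ob had under 20 UMIs in several comparisons.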

Other observations

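Unnamed clusters differed widely in class II level. Cluster m02, of 14 FL_control cells led by Cd207 and Cx3cr1, stood at 56489 CPM for the summed H2-Aa, H2-Ab1, H2-Eb1 and Cd74, with C1qa at 5855 CPM. Cluster m10, led by cell cycle genes such as Top2a and Mki67, stood at 27971 CPM in 11 FL_control cells and at 18646 in 17 dHep_IR cells. Cluster c17, of 79 FL_control cells led by Prg4 and Alox15, stood at 590 CPM, below the Kupffer-like cells of that library.

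H2-DMa and the inhibitor genes were read in T-like cells of FL_IR without the classical chains. In the 112 T-like cells of FL_IR, H2-Aa, H2-Ab1 and H2-Eb1 had 0 UMIs and Cd74 had 3. H2-DMa stood there at 49.3 CPM, H2-Oa at 20.6 and H2-Ob at 9.59. The values were 33.8, 10.9 and 19.4 CPM in FL_control and 34.5, 9.13 and 9.78 in dHep_IR. T-like cells of those 2 libraries did hold classical chains, with 543 UMIs in FL_control and 27 in dHep_IR.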
